A study of Mus musculus with 6 samples.

Results

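The imprinted cluster around Igf2r and Airn on mouse chromosome 17 was described through its 4 named genes, Igf2r, Airn, Slc22a2 and Slc22a3, taken by Entrez ID from the 27179 gene records of each count file. RNA sequencing had been done on 6 libraries of male neural stem cells, 3 wild type and 3 homozygous for Smchd1 MommeD1, an allele that the labels call Smchd1 null. The cells came from brains of E14.5 embryos, and their strain is given as C57BL/6 x FVB/N. All 6 cultures received 20 ng/ml of EGF and 20 ng/ml of bFGF on polyornithine and laminin. Nothing in the labels says that replicates came from separate embryos, so the spread that the p-values measure may be technical. Which parental copy of chromosome 17 each read came from was not analysed here, so all values below are totals over both copies.

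Igf2r encodes a large membrane receptor that carries enzymes tagged with mannose 6-phosphate to lysosomes and that takes up IGF2 for degradation. In most mouse tissues it is expressed from the maternal copy. Airn is a long, mostly unspliced noncoding RNA that runs antisense to Igf2r from an imprinted control region inside that gene. It is made from the paternal copy, where its transcription silences Igf2r and, in placenta, also Slc22a2 and Slc22a3, which encode organic cation transporters. In neurons Airn is known to be silent and Igf2r to be expressed from both copies. SMCHD1 is a chromatin protein that helps to silence the inactive X chromosome and several autosomal gene clusters, and the comparison asked which of these genes changed when it was lost.

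In mm10 coordinates (GRCm38.p6, RefSeq), Igf2r spans chromosome 17 from 12682406 to 12769706 on the minus strand, and Airn spans 12741311 to 12859884 on the plus strand. Airn starts 28.4 kb downstream of the Igf2r start, so that its span covers 2 of the 48 exons of the main Igf2r transcript in GENCODE M21. Slc22a2 (12584189 to 12628489) and Slc22a3 (12419972 to 12507704) lie beyond the 3′ end of Igf2r. Their start sites are 157 and 234 kb from that of Airn. Smchd1 lies on the same chromosome, 58.6 Mb away.

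The Igf2r and Airn promoters are shown because they are the 2 opposed starts whose RNAs were abundant enough to test. Each line gives 250 bases before and 50 after the RefSeq start site, 5′ to 3′ on the gene's own strand, with CpG dinucleotides in capitals.
Igf2r promoter, chr17:12769657-12769956, minus strand: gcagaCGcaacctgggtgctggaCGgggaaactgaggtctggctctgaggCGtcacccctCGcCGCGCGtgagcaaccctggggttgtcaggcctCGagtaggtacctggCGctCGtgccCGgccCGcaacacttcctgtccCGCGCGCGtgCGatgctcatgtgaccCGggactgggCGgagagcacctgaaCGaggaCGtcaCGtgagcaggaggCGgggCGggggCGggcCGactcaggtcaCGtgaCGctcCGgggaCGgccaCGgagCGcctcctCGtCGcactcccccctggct
Airn promoter, chr17:12741061-12741360, plus strand: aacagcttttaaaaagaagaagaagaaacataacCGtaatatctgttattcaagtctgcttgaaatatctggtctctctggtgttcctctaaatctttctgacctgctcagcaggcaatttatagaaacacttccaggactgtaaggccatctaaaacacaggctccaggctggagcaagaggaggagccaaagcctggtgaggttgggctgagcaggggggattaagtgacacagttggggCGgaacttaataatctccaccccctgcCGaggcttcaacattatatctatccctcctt

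The Igf2r window held 34 CpG and 70.7% G and C, and only 7.73% of 32851 RefSeq promoter windows of the same length held as many CpG. The Airn window held 3 CpG and 45.7% G and C, and 76.7% of windows held at least that many CpG. Other Airn transcripts in GENCODE M21 start at 12741374, 12741385 and 12741398, beyond the end of this window. The CpG content there was not counted, so the value holds for this window only. The windows of Slc22a2 and Slc22a3 held 8 and 5 CpG, close to the median of 7 over all windows. The E-box letters CACGTG, which read the same on both strands, occurred at 2 places in the Igf2r window and in none of the other 3.
Igf2r E-box 48 bases before the start, chr17:12769737-12769766, minus strand: gaacgaggacgtCACGTGagcaggaggcgg
Igf2r E-box 7 bases before the start, chr17:12769696-12769725, minus strand: gccgactcaggtCACGTGacgctccgggga
The E-box is in capitals. Nearer the start it is the centre of the longer palindrome GTCACGTGAC, which is the consensus of the element shared by many lysosomal genes. CACGTG was found in 7.15% of all windows and GTCACGTGAC in 0.326%. Of 36 lysosomal genes listed for this work 29 had an entry in the promoter table, and of their 32 windows 11 held CACGTG, among them those of Ctsd, Ctsl and Gaa, and 0 held the longer form. The letters TGCCGC, the core of a motif bound by the imprint protector ZFP57 when methylated, occurred once on either strand in the Slc22a2 window, in none of the other 3, and in 11.6% of all windows.

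Library totals ran from 18608881 to 23253367 counts. In wild type replicate 3 a single record, with no symbol in the gene table used here, took 44.6% of the counts, against 2.11% to 5.90% elsewhere, and its effective depth after TMM scaling was 10.1 M against 21.3 to 25.8 M. By sample name, the null libraries are 11 to 13 and wild type replicate 3 is 14, while the other two wild type libraries bear names in a separate, higher range. Smchd1 fell from 254 ± 20.0 to 29.7 ± 1.68 CPM (mean ± SD, n = 3; CPM are counts per 1 M counts of the TMM-scaled total). All 13 neural stem cell markers listed passed the filter on low counts, with summed levels of 6517 to 6816 CPM in wild type and 6499 to 6651 CPM in null.

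Of the 4 cluster genes, Igf2r and Airn were abundant enough to be tested, and neither passed the edgeR quasi-likelihood test at an adjusted p of 0.05. Over all 14207 tested genes 0.577% passed (0.507% higher and 0.0704% lower in null), and 18.6% had an unadjusted p under 0.05, as had 1 of the 2 members, Airn. DESeq2 and limma-voom called 0 of the 2 as well, while limma-voom with sample quality weights called both lower, where it called 36.4% of all genes. Slc22a3 was at the edge of detection and Slc22a2 was not detected above 1 count in any library.

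Igf2r stood at 145, 147 and 114.4 CPM in wild type replicates 1, 2 and 3. In null replicates 1, 2 and 3 it stood at 120.5, 131 and 120.0 CPM. The groups overlapped, because wild type replicate 3 lay below all 3 null libraries while the other two wild type libraries lay above them. Group means were 135 ± 18.3 and 124 ± 6.42 CPM (SD, n = 3). On the log2 scale null minus wild type was -0.13 ± 0.10 (SE), with an edgeR adjusted p of 0.467. Its 95% interval, -0.36 to 0.09, allowed a null level between 0.780 and 1.07 of the wild type level. With 1153 to 3746 counts per library, counting error was small next to the distance between wild type libraries. For example, the exact Poisson interval of wild type replicate 3 was 108 to 121 CPM and that of replicate 2 was 142 to 152 CPM.

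Airn had 48, 43 and 12 counts in wild type replicates 1, 2 and 3, or 1.86, 1.83 and 1.19 CPM. The null libraries had 24, 22 and 26 counts, or 1.13, 1.03 and 1.16 CPM. The groups did not overlap, as was the case for 22.0% of all tested genes (10.6% lower and 11.4% higher in null), but wild type replicate 3 lay only just above the highest null library and well below the other two. Means were 1.63 ± 0.379 and 1.11 ± 0.0669 CPM (SD, n = 3). By edgeR the log2 fold change was -0.61 ± 0.24 (SE), and its adjusted p was 0.238 (0.0324 before adjustment). Its unadjusted 95% interval ran from -1.15 to -0.06. Counting error alone was wide here: the exact Poisson interval of wild type replicate 3 ran from 0.615 to 2.08 CPM and took in the value of every other library. Such intervals cover counting error only.

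The Airn counts come from its exons. The deposited files gave Airn a length of 2188 bases, which is 1.85% of its genomic span, so reads from the rest of the span were not counted. Spliced and unspliced RNA cannot be told apart in reads that lie within exons. Strand is not marked by the library kit, so reads from Airn and Igf2r cannot be told apart where they overlap. In GENCODE M21, 0 bases of the Airn exons lie on Igf2r exons, 3.17% of the 3597 Airn exon bases lie within the Igf2r span, and 519 Igf2r exon bases lie within the Airn span. Per kb of counted length Igf2r stood at 15.2 CPM and Airn at 0.744 CPM in wild type, a ratio of 20.4. In null the values were 13.9 and 0.505 CPM per kb, a ratio of 27.5. By this measure 32.9% of tested genes lay above Igf2r in wild type and 86.2% above Airn.

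The ratio of Airn to Igf2r within a library does not depend on how libraries are scaled. It was 12.8, 12.5 and 10.4 Airn counts per 1000 Igf2r counts in wild type replicates 1, 2 and 3, and 9.36, 7.85 and 9.66 in null replicates 1, 2 and 3. All 3 wild type libraries lay above all 3 null libraries, with means of 11.9 ± 1.30 and 8.96 ± 0.972 (SD, n = 3). The mean log2 ratio was lower in null by a difference of -0.41, and the exact two-sided permutation test gave p = 0.1, the smallest value that 3 against 3 libraries can reach. Taking wild type replicate 3 alone against the null libraries, the difference was -0.22.

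Slc22a3, the extraneuronal monoamine transporter OCT3, had 1, 1 and 7 counts in wild type replicates 1, 2 and 3 and 4, 6 and 9 counts in null replicates 1, 2 and 3. These correspond to 0.0388, 0.0426 and 0.695 CPM in wild type and to 0.188, 0.281 and 0.401 CPM in null. The highest and the lowest values both belonged to wild type, and the highest was that of wild type replicate 3. Pooled over the libraries of a group, 9 wild type and 19 null counts gave a null to wild type ratio of 1.93, with an exact binomial 95% interval of 0.830 to 4.83. Without wild type replicate 3 the wild type counts fell to 2 and the ratio was 7.19, with an interval of 1.74 to 63.7, while against wild type replicate 3 alone it was 0.42 (0.169 to 1.18). In bulk RNA, a few cells with the transcript and a low level in every cell cannot be told apart.

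Slc22a2, the related transporter OCT2, had 1 count in wild type replicate 3 and 0 in the other 5 libraries. A count of 0 allows up to 0.116 to 0.141 CPM in those libraries, taking 3 counts as the floor, so no fold change is given. Of 6 markers of placenta and yolk sac, where the silencing of these transporter genes is best known, none passed the filter, and their summed level was 0 in 5 libraries and 0.0426 CPM in wild type replicate 2.

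**Figure D1:**
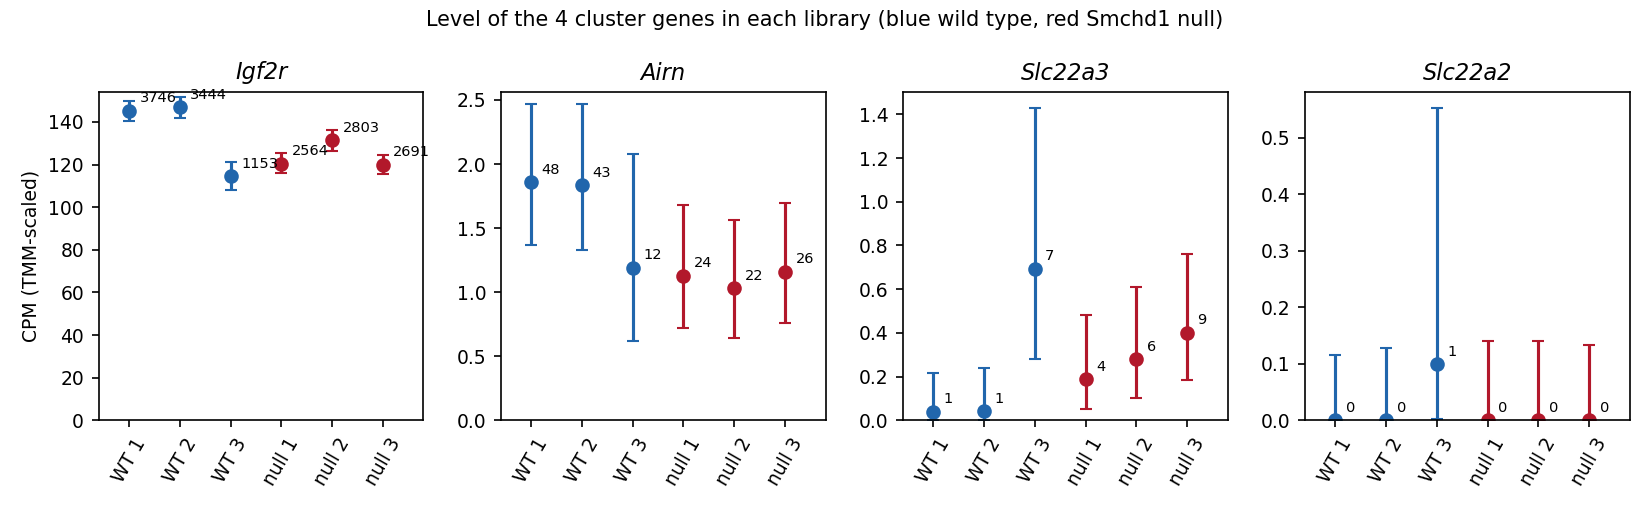
Level of Igf2r, Airn, Slc22a3 and Slc22a2 in each library, in CPM on a linear axis from 0, with the raw count beside each point and bars for the exact Poisson 95% interval, or up to the 3-count floor where the count was 0 (counting error only). Wild type replicates 1 and 2 stand above the rest for Igf2r and Airn and below the rest for Slc22a3, whereas wild type replicate 3 lies with the null libraries for Igf2r and Airn and highest for Slc22a3.

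The 3 detected genes shared this arrangement: wild type replicates 1 and 2 stood on one side and the 4 libraries with sample names 11 to 14 on the other. When the range of sample names was added to the edgeR model, which then compares the null libraries with wild type replicate 3 alone, the null effect on Igf2r was 0.12 (adjusted p = 0.539) and that on Airn was -0.11 (adjusted p = 0.947). In that model the lone wild type library is assumed to vary like the others. The range term itself, wild type replicate 3 against replicates 1 and 2, was -0.35 for Igf2r and -0.63 for Airn, given without a test because it was read after the position of that library had been seen. Leaving out wild type replicate 3 instead, both genes were called lower in null, Igf2r at -0.24 (adjusted p = 0.00191) and Airn at -0.74 (adjusted p = 0.0167), where 39.2% of all tested genes were called (19.7% higher, 19.4% lower). Sample-name range and genotype cannot be told apart in wild type replicates 1 and 2, since no null library carries a name in their range.

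**Figure D2:**
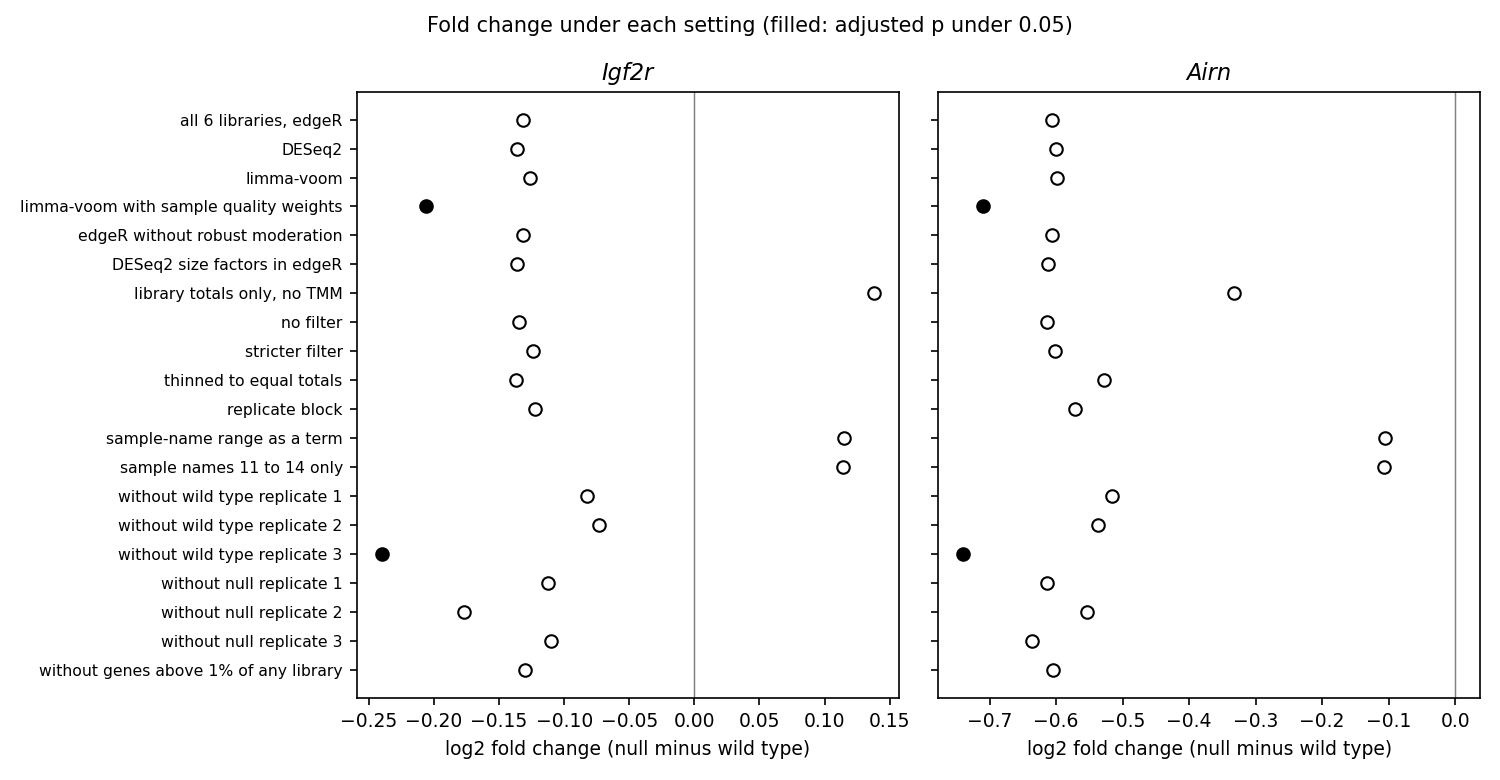
Log2 fold change (null minus wild type) of Igf2r and Airn under the edgeR fit and 19 alternatives, filled where the adjusted p was under 0.05. Igf2r ranged from -0.24 to 0.14 and Airn from -0.74 to -0.11, and both were called with sample quality weights and without wild type replicate 3.

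The summed oligodendrocyte and astrocyte markers showed the same arrangement of libraries. The 8 oligodendrocyte lineage markers listed, of which 7 passed the filter, summed to 747, 669 and 1070 CPM in wild type replicates 1, 2 and 3 and to 922 to 993 CPM in null. The 5 astrocyte markers summed to 210.5, 217 and 273 CPM in wild type and to 233 to 254 CPM in null. Most of the oligodendrocyte sum was Olig1, at 650, 575 and 772 CPM in wild type and 705 to 746 CPM in null. Some less abundant markers split more widely than the sums. Pdgfra stood at 17.1, 18.3 and 167 CPM in wild type and at 112.6 to 137 CPM in null. Sox10 stood at 0.543, 0.426 and 7.24 CPM in wild type and at 3.01 to 3.75 CPM in null. The astrocyte marker Aldh1l1 stood at 36.3, 51.8 and 99.9 CPM in wild type and at 72.5 to 77.0 CPM in null. Not every marker showed the arrangement. Aldoc, the most abundant astrocyte marker, stood at 173, 164 and 167 CPM in wild type and at 154 to 177 CPM in null. Mog, of the oligodendrocyte list, also did not, at 0.426 to 0.682 CPM in wild type and 0.234 to 0.713 CPM in null. The 12 neuronal markers listed summed to 1147, 1130 and 1096 CPM in wild type replicates 1, 2 and 3 and to 1013 to 1042 CPM in null. Nearly all of it was Map2 (1058 to 1101 and 967 to 999 CPM). In these neuronal sums wild type replicate 3 lay between the other wild type libraries and the null libraries. Of the 10 tested neuronal markers 3 had negative log2 fold changes, the median was 0.20, and 1, the neurofilament gene Nefl, was called higher. Nefl stood at 0.543, 0.725 and 0.893 CPM in wild type and at 1.97 to 2.90 CPM in null. Dcx instead stood at 0.814, 0.384 and 5.56 CPM in wild type and at 3.19 to 4.15 CPM in null. For Dcx wild type replicate 3 was thus highest, as in the oligodendrocyte and astrocyte sums. Slc17a6, a marker of excitatory neurons, had 0 counts in every library. The part of these markers in the values of the cluster genes was not tested. Microglial, endothelial, fibroblast and red cell markers each summed to 3.03 CPM or less in every library.

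Beyond the 4 genes, 24 further genes in the files lie within 500 kb of the span from Igf2r to Airn. Of these, 9 were tested and 0 passed the edgeR test (2 had an unadjusted p under 0.05, as had 18.6% of all tested genes). Their median log2 fold change was -0.12, against 0.0013 over all tested genes. Tcp1, a subunit of the chaperonin that folds actin and tubulin, averaged 557 CPM in the wild type and 513 CPM in the null libraries, a log2 fold change of -0.12 ± 0.10 (SE). Acat2, an acetyl-CoA acetyltransferase of the cytosol, stood at -0.12 ± 0.08 and its neighbour Acat3 at -0.16 ± 0.08. Acat3 overlaps the end of Tcp1, so reads there could be split between the pair. Mrpl18, a mitochondrial ribosomal protein gene that overlaps Tcp1, stood at -0.10 ± 0.11, and Wtap, a subunit of the RNA m6A methyltransferase, at -0.15 ± 0.07. Sod2, the mitochondrial superoxide dismutase, stood at -0.02 ± 0.07.

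On the Slc22a3 side, Agpat4, an acyltransferase of phospholipid synthesis, stood at -0.18 ± 0.11. Map3k4, a stress-activated kinase gene, stood at 0.16 ± 0.07 and the noncoding 4732491K20Rik at 0.16 ± 0.27. Without wild type replicate 3, 1 of the 9 was called higher (Map3k4, 0.18) and 6 were called lower, against 19.7% and 19.4% of all tested genes, with log2 fold changes of the 6 from -0.27 for Agpat4 to -0.19 for Acat2. The value of Igf2r in that fit, -0.24, lay within the range of these 6 neighbours, and that of Airn, -0.74, lay below it. Whether either differs from the neighbours was not tested. With the sample-name range as a term, the median log2 fold change of the 9 neighbours was 0.03, against 0.0002 over all tested genes. The 6 neighbours called lower without wild type replicate 3 then ran from -0.05 for Wtap to 0.19 for Mrpl18. Among genes too low to test, Plg, which encodes plasminogen, had 0 to 2 counts per library, and Mas1, a receptor gene that overlaps the far end of Airn, had 8, 4 and 0 counts in wild type and 2, 0 and 2 in null.

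**Figure D3:**
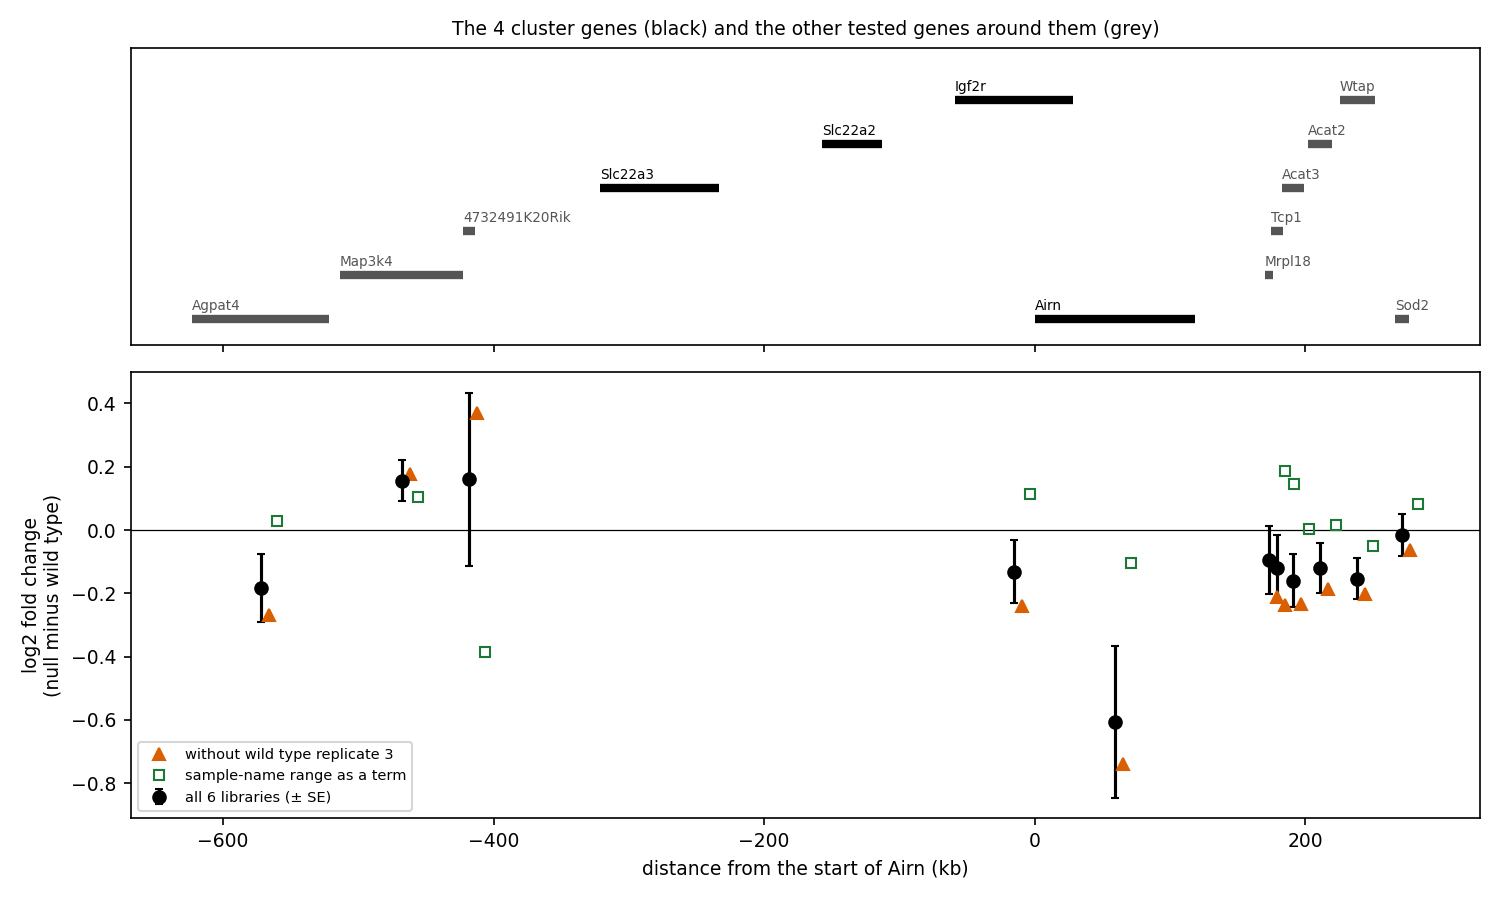
The 4 cluster genes and the 9 other tested genes around them, drawn to scale by distance in kb from the start of Airn (top), and the log2 fold change of the 11 tested genes at the middle of each gene (bottom; bars are SE). Airn has the lowest fold change over all 6 libraries at -0.61, and the 10 other genes lie between -0.18 and 0.16; the markers for the other fits are offset slightly to the right.

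In the mannose 6-phosphate pathway, 0 of 5 genes passed, with a median log2 fold change of -0.09. M6pr, the smaller cation-dependent receptor for the same tag, stood at 86.9, 86.5 and 79.4 CPM in wild type and at 80.6, 75.7 and 77.3 CPM in null (log2 fold change -0.12 ± 0.07). Wild type replicate 3 lay between null replicates 1 and 3. It was below the other wild type libraries, as for Igf2r, where it was also below all null libraries. Gnptab, which encodes subunits of the enzyme that adds the tag, stood at 0.09 ± 0.08. Without wild type replicate 3, 2 of the 5 were called lower (19.4% of all tested genes were), namely Igf2r and M6pr (-0.16, adjusted p = 0.0293).

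None of the 36 lysosomal enzymes and cofactors passed, with a median of -0.01. Of the 36, 7 had an unadjusted edgeR p under 0.05, a share near the 18.6% of all tested genes in either direction. All 7 were lower in null (Ctsa, Ctsb, Ctsl, Gla, Glb1, Asah1 and Npc2). The groups did not overlap for 9 of the 36, each lower in null, while 10.6% of all tested genes were lower without overlap. The smallest p values belonged to Glb1, a beta-galactosidase (-0.29 ± 0.08, adjusted p = 0.158), Npc2, a cholesterol carrier of the lysosome (-0.35 ± 0.11), and Ctsl, a cysteine protease (-0.23 ± 0.08). Without wild type replicate 3, 6 of the 36 were called higher and 6 lower, where 39.2% of all tested genes were called. Among 19 genes that sort the receptors, 0 passed and the median was -0.04. Gga3, an adaptor that binds the tails of the receptors at the trans-Golgi network, stood at 0.38 ± 0.11, Ap1m1, an AP-1 adaptor subunit, at -0.18 ± 0.06, and Vps29, a retromer subunit, at -0.17 ± 0.07. Without wild type replicate 3, 4 of these 19 were called higher and 5 lower, where again 39.2% of all tested genes were called.

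IGF2, the ligand that Igf2r clears, was barely transcribed in the cultures, with Igf2 at 0.329 to 0.767 CPM over the 6 libraries and a log2 fold change of -0.49 ± 0.32. Of 9 ligand, receptor and related genes 0 passed, with a median of -0.11. Igf1r and Insr, the signalling receptors, stood at -0.10 ± 0.08 and 0.04 ± 0.08. Irs1, an adaptor downstream of both, stood at -0.22 ± 0.10 and Igf1 at 0.48 ± 0.30. Without wild type replicate 3, 0 of the 9 were called higher and 3 lower, against 19.7% and 19.4% of all tested genes.

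Of 20 SLC22 and other organic cation transporter genes listed, 6 passed the filter and 0 the test, with a median of 0.02. Slc22a17 at 163 to 187 CPM in wild type and Slc22a23 at 62.8 to 68.0 CPM were the most abundant, with log2 fold changes of -0.08 ± 0.08 and -0.0046 ± 0.0687. The tested members with the smallest p were Slc22a15 (0.33 ± 0.26), Slc22a5, a carnitine transporter (0.19 ± 0.17), and Slc22a17. Slc29a4, another monoamine transporter, stood at 0.04 ± 0.13.

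Factors linked to silencing by Airn were expressed in both groups, and 0 of 14 passed, with a median of -0.05. Ehmt2, the H3K9 methyltransferase that Airn is known to bring to Slc22a3 in placenta, stood at 204 to 232 CPM in wild type and 195 to 211 CPM in null (-0.09 ± 0.07). The smallest p values belonged to Rnf2, a Polycomb ubiquitin ligase (-0.30 ± 0.08, adjusted p = 0.161), Ezh2, the Polycomb methyltransferase (-0.18 ± 0.08), and Hnrnpk, an RNA-binding protein (-0.17 ± 0.10). All 3 were called lower without wild type replicate 3, among 5 of the 14 in all, beside 19.4% of all tested genes lower and 19.7% higher.

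Of 11 genes that maintain imprinted methylation, 9 were tested and 0 passed, with a median of 0.04. Zfp57, the zinc finger protein that protects imprinted control regions, stood at 9.92, 13.2 and 12.9 CPM in wild type and at 16.3, 18.4 and 14.4 CPM in null. The groups did not overlap, with null higher, as for 11.4% of all tested genes. The log2 fold change was 0.45 ± 0.14 (edgeR adjusted p = 0.189). Uhrf1, which guides the maintenance methyltransferase, stood at -0.25 ± 0.09 and Dnmt1, that methyltransferase, at -0.15 ± 0.08. Without wild type replicate 3, 1 of the 9 was called higher and 3 lower, against 19.7% and 19.4% of all tested genes.

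Airn is itself in the list of imprinted noncoding RNAs and other imprinted genes, of which 11 were tested and 0 passed, with a median of 0.14. Of the 11, 6 had an unadjusted edgeR p under 0.05, against 18.6% of all tested genes. The groups did not overlap for 6 of the 11, against 22.0% of all tested genes, in either direction. The list was chosen with earlier results of these data known. Among these 11 Airn had the lowest log2 fold change. Kcnq1ot1, which silences its neighbours on the paternal copy much as Airn does, stood at 53.3, 56.8 and 53.7 CPM in wild type and 63.0, 66.4 and 57.2 CPM in null (0.19 ± 0.08). Its groups did not overlap, with the null libraries higher, as was the case for 11.4% of all tested genes. That direction was the reverse of Airn. For both genes the groups were only just apart, with 56.8 CPM in wild type next to 57.2 CPM in null for Kcnq1ot1. Gnas, a G protein subunit gene, stood at -0.31 ± 0.08 (edgeR adjusted p = 0.143), and Snhg14, the host of the Prader-Willi small nucleolar RNAs, at 0.58 ± 0.18. Rian, a maternal noncoding RNA, stood at 1.57 ± 0.47. Its level was 1.20, 0.682 and 3.47 CPM in wild type replicates 1, 2 and 3 and 4.15 to 5.17 CPM in null. Without wild type replicate 3, 3 of the 11 were called higher and 2 lower, against 19.7% and 19.4% of all tested genes.

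**Figure D4:**
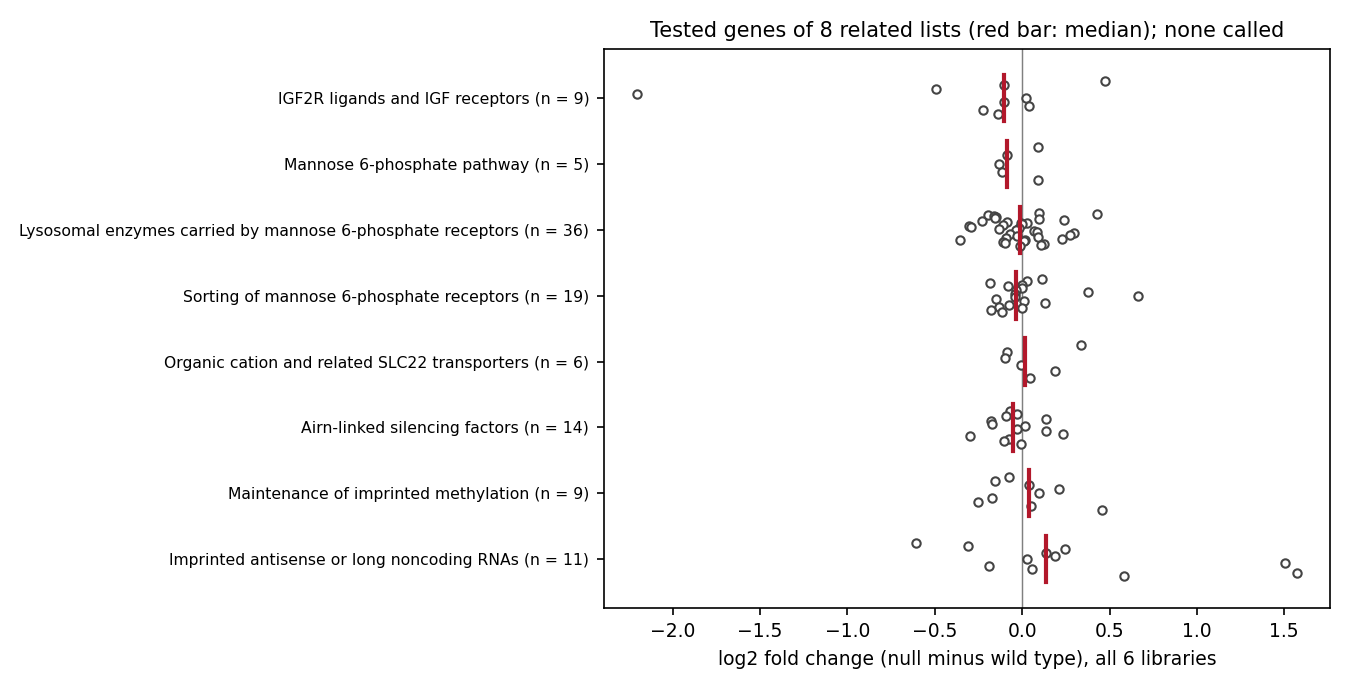
Log2 fold change (null minus wild type, all 6 libraries) of each tested gene in 8 lists related to the cluster, with the median as a red bar. Medians lie between -0.11 and 0.14, and the farthest points are Igf2bp1 at -2.20 and the imprinted RNA Rian at 1.57.

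The genes whose log2 CPM over the 6 libraries was most like that of Igf2r were Ptpn21, Eny2, Hes6, Adamts1 and Lpp, with Pearson correlations of 0.997, 0.996, 0.994, 0.993 and 0.993. Ptpn21, for instance, stood at 23.7, 23.9 and 16.6 CPM in wild type and at 18.3, 20.1 and 17.7 CPM in null, again with wild type replicate 3 lowest. For Airn they were Nsmce4a, Fars2, Rab3ip, Pck2 and Galnt1, at 0.999, 0.998, 0.997, 0.997 and 0.996. Nsmce4a stood at 84.6, 84.1 and 66.7 CPM in wild type and at 64.7, 62.1 and 66.8 CPM in null. All these correlations rest on the same 6 libraries, and values as high were common. Among the abundant named genes compared, 739 (6.45%) reached a correlation over 0.9 with Igf2r, and 1313 (11.5%) did so with Airn. Between Igf2r and Airn it was 0.82.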

How the data were processed

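Per the labels' protocols, 1 µg of total RNA per library went into the unstranded TruSeq RNA v2 kit for single-read sequencing. The deposited values are raw counts per Entrez gene, with the counted gene length in bases as the other deposited column. Per the submitters' processing notes, the authors used featureCounts, CASAVA 1.8.2, limma 3.22.0 and edgeR 3.8.2 on build mm10. Not given in the sources used here are the aligner, the annotation and the handling of shared reads. Groups came from the sample titles. Symbols, positions and promoters came from RefSeq (GRCm38.p6), which matched 25275 of 27179 IDs (93.0%) and all 4 cluster genes, and exons from GENCODE M21.

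Counts were tested with edgeR 4.0.16 (R 4.3.3): filterByExpr, TMM, a robust quasi-likelihood fit with genotype as the only term, and Benjamini-Hochberg adjustment over 14207 genes at 0.05. SE were derived from the F statistic and fold change. Alternatives used DESeq2 1.42.0, limma-voom (limma 3.58.1), other scalings and filters, thinning, a replicate block, the sample-name range and leaving out each library. Leaving out genes above 1% of any library, and reading the range term itself, were added after seeing the data. Slc22a2 and Slc22a3 did not pass the filter and were described by counts, with exact binomial 95% intervals for pooled ratios. The code was tested on simulated data.

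The members and lists were chosen with earlier results of these data known. Named genes are the 4 cluster genes, the tested genes within 500 kb, the 3 smallest p values and any call in each list, and the 5 genes most correlated with each tested member on log2(CPM + 0.5), at an average log2 CPM of at least 1 and with no predicted or clone name. Other genes named were chosen after their values were seen.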

Additional observations from a re-analysis of the deposited data

How the results depend on the processing

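Over 19 alternatives the Igf2r log2 fold change ran from -0.24 to 0.14 and was negative in 16. It turned positive with library totals in place of TMM (0.14, where the median of all genes moved to 0.32), with the sample-name range as a term (0.12) and with sample names 11 to 14 only (0.11). Airn was negative in all 19, from -0.74 to -0.11. Both passed with sample quality weights (-0.21 and -0.71) and without wild type replicate 3 (-0.24 and -0.74). Leaving out 1 library at a time gave -0.24 to -0.073 for Igf2r and -0.74 to -0.52 for Airn. The pooled Slc22a3 log2 ratio of 0.95 ran from 0.29 to 2.85 when 1 library was left out, its highest being without wild type replicate 3, and was -1.25 with names 11 to 14 only. The log2 Airn to Igf2r ratio difference ran from -0.50 to -0.32 when 1 library was left out, and was -0.22 with names 11 to 14 only. No fold change was computed for Slc22a2, and the cause of these shifts was not tested.

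The 82 genes called (72 higher, 10 lower) became 401 (180 and 221) with DESeq2, 127 (104 and 23) with limma-voom, 5168 (2700 and 2468) with sample quality weights and 457 (454 and 3) with library totals. They became 222 (163 and 59) with no filter, 186 (77 and 109) with the sample-name range as a term and 376 (126 and 250) with names 11 to 14 only. Leaving out 1 library gave 30 to 5676, the highest without wild type replicate 3 and 30 to 45 otherwise. With the replicate block 54 genes were called (48 and 6), Igf2r stood at -0.12 and Airn at -0.57, and neither call changed. Deviations of same-numbered libraries correlated at -0.0059, 0.0275 and -0.0411, so the numbers were not taken as pairs. Depth limits Airn, with 12 to 48 counts per library, and both transporter genes.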

Other observations

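Igf2bp1, which encodes an RNA-binding protein that binds Igf2 mRNA, showed the split between libraries most widely among the IGF genes listed. It stood at 14.2 and 10.4 CPM in wild type replicates 1 and 2, at 1.09 CPM in wild type replicate 3, and at 2.11, 2.16 and 1.60 CPM in null. The groups overlapped, and the log2 fold change of -2.20 ± 0.75 (SE) had an adjusted p of 0.229 by edgeR. Igf2bp3, its relative, stood at 145 and 136 CPM in wild type replicates 1 and 2 and at 102 CPM in replicate 3, with 118 to 122 CPM in null. Igf2bp2 stood at 27.3 to 32.8 CPM in wild type and 28.8 to 33.2 CPM in null, with overlapping groups.

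Meg3, a maternal noncoding RNA of another imprinted cluster, lay the other way, at 0.233 and 0.341 CPM in wild type replicates 1 and 2 against 1.39 CPM in replicate 3 and 0.981 to 1.73 CPM in null. Igf2bp3, Igf2bp2 and Meg3 were chosen after their values were seen. The part of the sample-name range in these values was not tested separately.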
